A study of Saccharomyces cerevisiae W303 with 4 samples.

Results

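The genes described here are the 8 core histone genes of budding yeast, which lie as 4 divergent pairs (HTA1-HTB1, HTA2-HTB2, HHT1-HHF1 and HHT2-HHF2), and HTZ1. They were taken by name, and are 9 of the 6002 protein-coding genes that the R64 annotation places on the nuclear chromosomes. Each coding sequence and each promoter shared by a divergent pair was scored against a list of Zuo1 binding sites from chromatin immunoprecipitation followed by sequencing (ChIP-seq). All samples were W303 cells that express Zuo1 with a Myc tag, grown at 30 °C as asynchronous cultures and crosslinked. The study has 2 IP libraries, from DNA precipitated with an antibody against Myc, and 2 input libraries of the same strain. The authors pooled them in 1 peak list, the only data used here. Single libraries were not analysed here, and the values below therefore carry no replicate error. A strain without the tag was not analysed here.

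Zuo1 is the J-domain partner of the ribosome-associated chaperone complex, and the study asked where it binds chromatin in relation to G-quadruplex (G4) motifs. HTA1 and HTA2 encode histone H2A, HTB1 and HTB2 encode H2B, HHT1 and HHT2 encode H3, and HHF1 and HHF2 encode H4. HTZ1 encodes the H2A variant H2A.Z, which the SWR1 complex places in nucleosomes next to promoters. In each core pair the genes are transcribed away from 1 shared promoter, mainly in S phase. The activator Spt10 binds paired elements in these promoters, and the HIR complex represses all pairs but HTA2-HTB2 outside S phase.

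Peaks were found in the bodies of 6 of the 9 genes, and their fold enrichments were modest, from 1.88 to 2.66. They lay in HTA1, HTB1, HTA2, HHF1, HHT2 and HHF2, so every core pair had at least 1 gene with a peak. No peak lay in HTB2, HHT1 or HTZ1. Of the 6 summits 3 were inside a histone gene, 3 lay past the stop codon of one, and none was in a promoter. For comparison, a peak overlapped 17.9% of all nuclear coding genes by at least 1 bp. Among the 314 coding genes of 312 to 411 bp, the length range of the 9 genes, the share was 19.1%. Of the cytosolic ribosomal protein genes, 125 of 138 (90.6%) held a peak. No test of these differences was made, since the list is a single pooled call.

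**Figure D1:**
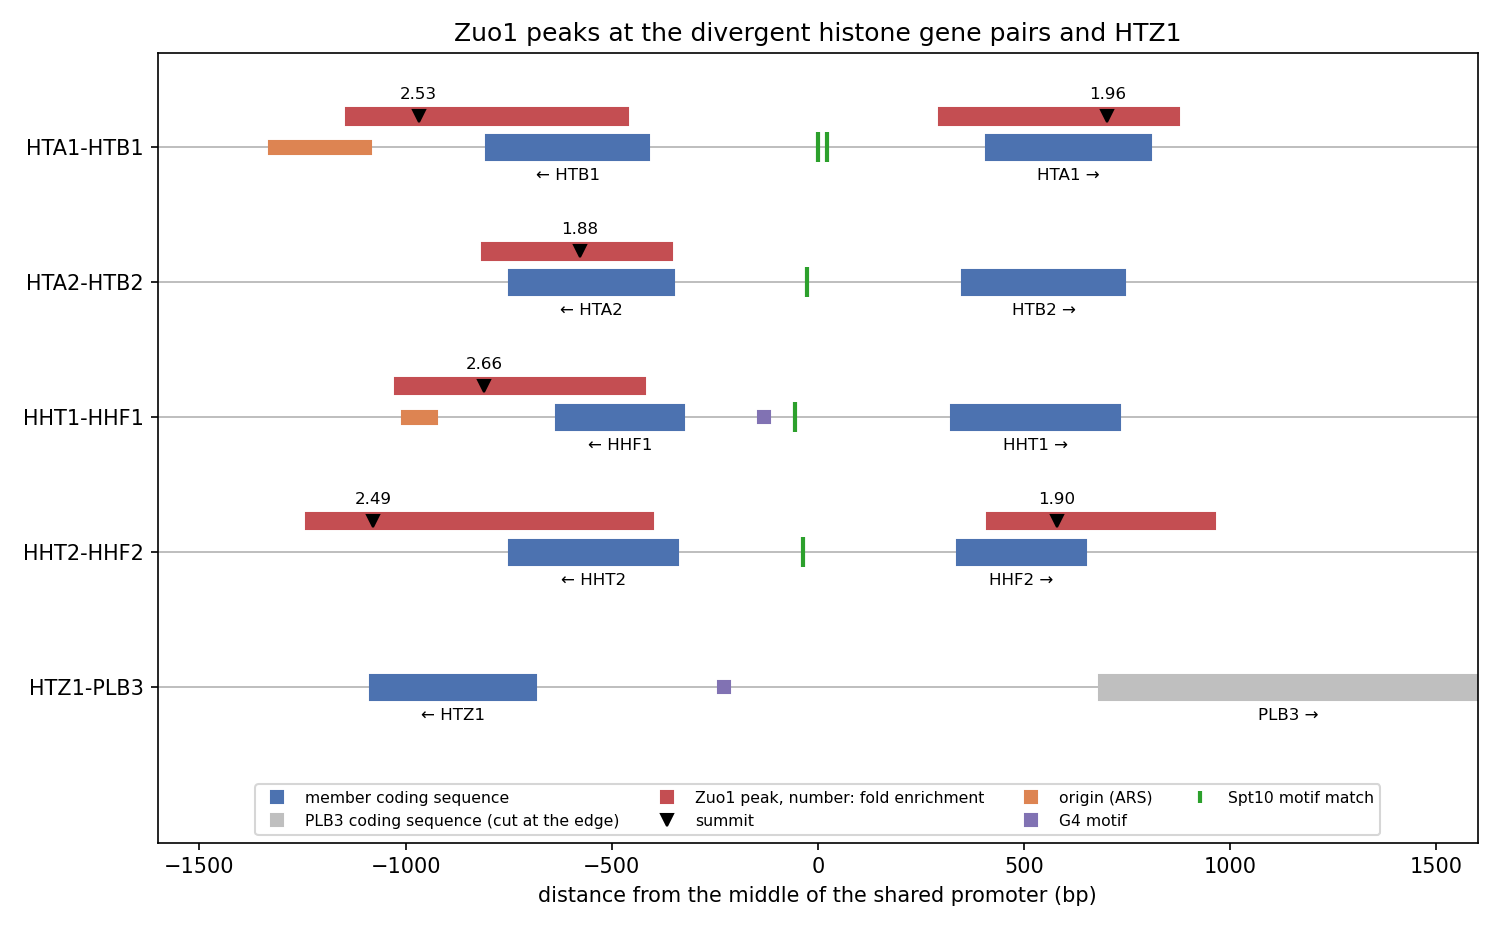
Map of the 4 divergent histone pairs and of HTZ1 with its neighbour PLB3, drawn to scale, with the distance from the middle of the shared promoter in bp on the x axis. Red bars are Zuo1 peaks with the fold enrichment at the summit (black triangle), from 1.88 to 2.66, and all 6 summits lie outside the promoters, which carry the Spt10 motif matches (green) and G4 motifs (purple).

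The sequence at each summit is shown because it is the base position that the peak list gives as the top of the peak. It is given in the direction of the histone gene, from the R64 reference, with runs of 3 or more G or of 3 or more C in capitals, as G4 motifs are built from such runs. For the 3 summits inside a histone gene, 100 bases of coding sequence around the summit are shown. They run in HTA1 over chrIV:915773-915872 (plus strand), in HTA2 over chrII:235515-235614 (minus strand) and in HHF2 over chrXIV:576919-577018 (plus strand).
HTA1: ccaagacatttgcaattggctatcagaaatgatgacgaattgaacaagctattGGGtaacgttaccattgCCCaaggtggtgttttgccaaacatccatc
HTA2: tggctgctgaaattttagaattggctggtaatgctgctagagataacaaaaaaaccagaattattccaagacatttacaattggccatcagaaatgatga
HHF2: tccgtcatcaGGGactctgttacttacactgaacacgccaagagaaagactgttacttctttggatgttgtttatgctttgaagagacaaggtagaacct
The HTA2 stretch had no such run, while HTA1 had 2 and HHF2 had 1. For the summits past the stop codons of HTB1 (chrIV:914138-914167), HHF1 (chrII:255183-255212) and HHT2 (chrXIV:575295-575324), all on the minus strand, 30 bases are shown.
HTB1: aaatggtctcatagaGGGaatgcgcttatg
HHF1: gtttaaacagtttgattatttctgctactt
HHT2: tttactagcaatcctcttaatttcgtcatc
Of these 3 windows 1 had a run, that of HTB1, and the GC content was lowest at HHF1 with 26.7%. The windows differ in length, and how often like windows elsewhere hold such a run was not counted. The runs therefore only describe these sequences.

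At the HTA1-HTB1 pair both genes were covered. HTA1 (YDR225W, chromosome IV from 915530 to 915928, plus strand) lay entirely within a peak from 915414 to 915996. The summit at 915823 was 293 bp past the start of the coding sequence, with a fold enrichment of 1.96 (95% counting interval 1.56 to 2.43). This peak reached 116 bp into the shared promoter and was the only one of the 6 to do so. HTB1 (YDR224C, 914317 to 914712, minus strand) had 86.9% of its bases under a peak from 913977 to 914660, which was enriched 2.53-fold (2.06 to 3.07). Its summit at 914153 was 164 bp past the stop codon, between coding genes. The peak extended into the replication origin ARS428, of whose 249 bp it covered 62.

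At HTA2-HTB2, the second pair for H2A and H2B, a peak was found on the H2A side only. HTA2 (YBL003C, chromosome II from 235394 to 235792, minus strand) had 99.2% of its bases under a peak from 235327 to 235789, with the summit at 235565 inside the gene. Its fold enrichment of 1.88 (1.49 to 2.34) was the lowest of the 6. HTB2 (YBL002W, 236492 to 236887, plus strand) was 703 bp from this peak, which ended just short of the promoter. HTB1 and HTB2 thus differed in their calls, although a gene outside the list has no measured value and the difference itself was not tested.

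The H3 and H4 genes showed peaks at HHF1, HHT2 and HHF2. HHF1 (YBR009C, chromosome II from 255373 to 255684, minus strand) was overlapped over 69.2% of its bases by the strongest of the 6 peaks, from 254982 to 255588. This peak had a fold enrichment of 2.66 (2.15 to 3.24), and its summit at 255198 was 175 bp past the stop codon. It covered all 86 bp of the origin ARS209, while the summit lay outside the origin. HHT1 (YBR010W, 256331 to 256741, plus strand), on the other side of the promoter, was 743 bp away from the peak.

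On chromosome XIV the peaks were shared with the neighbouring genes. HHT2 (YNL031C, 575640 to 576050, minus strand) had 84.9% of its bases under a peak from 575147 to 575988, which reached a fold enrichment of 2.49 (2.01 to 3.05). The summit at 575310 was 330 bp past the HHT2 stop codon and inside SIW14, a phosphatase gene that converges on HHT2, so this value belongs to SIW14 as much as to HHT2. HHF2 (YNL030W, 576727 to 577038, plus strand) had 77.2% of its bases under a peak from 576798 to 577351, whose fold enrichment was 1.90 (1.49 to 2.40). Its summit at 576969 was inside HHF2, and the peak also reached the convergent neighbour KTR5, a mannosyltransferase gene. At the other pairs no flanking coding gene was touched: CRF1 and ADK1 (HTA1-HTB1), UTP20 and ECM15 (HTA2-HTB2), and FLR1 and IPP1 (HHT1-HHF1) held no peak.

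HTZ1 (YOL012C, chromosome XV from 303579 to 303983, minus strand) was the locus of the 5 without any peak. It shares a promoter of 1365 bp with PLB3, a phospholipase B gene. Neither gene nor the promoter held a peak, and the flanking genes HRD1 and RCL1 held none. The nearest peak was 2320 bp from HTZ1, from 300967 to 301259, over a tRNA gene, with a fold enrichment of 1.94 (1.52 to 2.44). The weakest peak of the whole list had a fold enrichment of 1.56, so a weaker signal at HTZ1, HTB2 or HHT1 would not be seen.

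The order of the 6 fold enrichments was HHF1, HTB1, HHT2, HTA1, HHF2 and HTA2. The peaks with summits past the stop codon of a histone gene reached 2.49 to 2.66. Those with summits inside a histone gene reached 1.88 to 1.96. The HHT2 summit (2.49) is in the first group but lies inside SIW14. The split is therefore not one between coding and noncoding summits. The intervals of all 6 overlapped, the highest lower limit being 2.15 and the lowest upper limit 2.34. Overlap of intervals does not test a difference, and differences between the peaks were not tested. The intervals are exact Poisson limits of the IP fragments over the summit, with the local background held fixed. They cover counting error only and not the spread between cultures. The median fold enrichment of the whole list was 2.44. Against this list the peaks with summits inside histone genes were at the 11.1 to 17.8 percentile. Those with summits past histone stop codons were at the 52.0 to 59.9 percentile. Peaks under 2-fold made up 20.3% of the list, and 3 of the 6 peaks here were of this kind. None of the 9 genes held a peak of 3-fold or more, as 7.31% of all coding genes did.

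**Figure D2:**
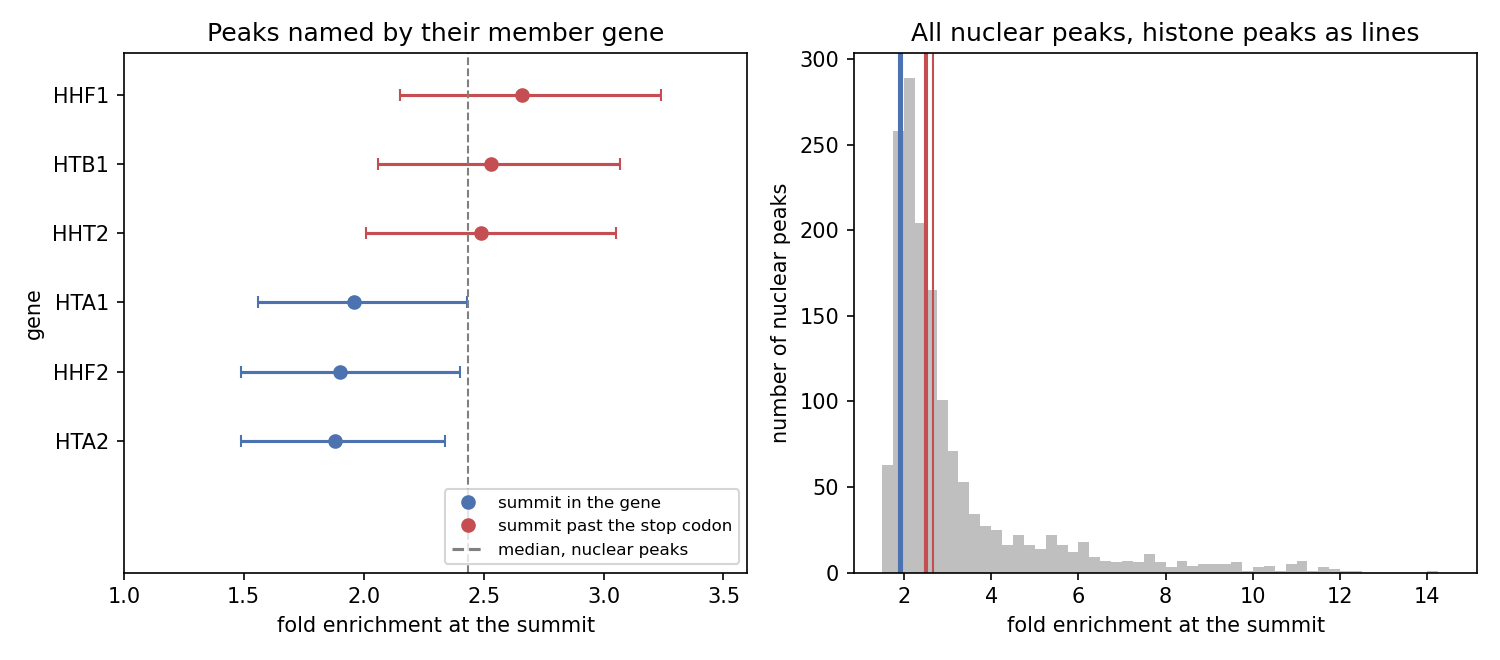
Left, fold enrichment at the summit of the 6 histone peaks with exact 95% counting intervals, and the median of the nuclear peaks as a dashed line. Red marks summits past the stop codon of the histone gene (2.49 to 2.66, that of HHT2 inside SIW14). Blue marks summits in the histone gene (1.88 to 1.96). Right, the number of nuclear peaks by fold enrichment, with the 6 histone peaks as lines, 3 on each side of the list median of 2.44, in a range that reaches 14.1.

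The fold enrichment and the p-value of a peak together give the IP fragments over the summit and the local background, which is scaled to the depth of the IP. The summit of HTB1 was covered by 101 IP fragments, that of HHF1 by 95 and that of HHT2 by 90. Fewer were recovered at HTA1 with 81, HTA2 with 78 and HHF2 with 70. The median over the whole list was 91. The local background ranged from 35.13 fragments at HHF1 to 41.08 at HTA2, beside a median of 36.71 over the nuclear peaks. The −log10 of the q-value was 15.0 at HHF1, 14.5 at HTB1 and 12.6 at HHT2, and was 6.62, 5.65 and 5.32 at HTA1, HTA2 and HHF2.

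**Figure D3:**
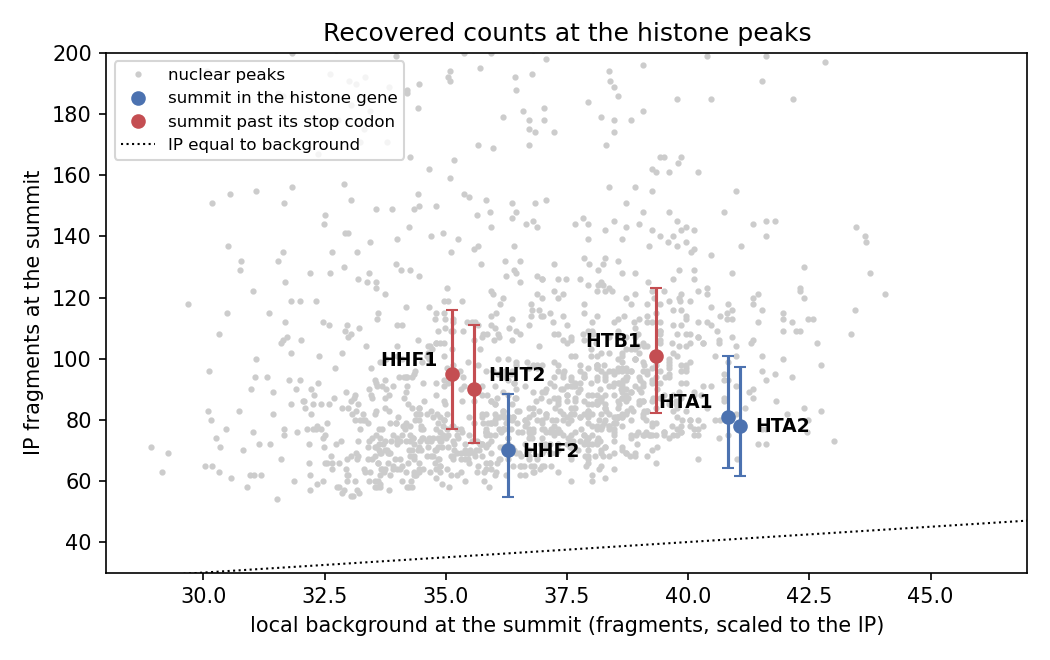
IP fragments at the summit against local background, both in fragments, for the nuclear peaks (grey) and the 6 histone peaks (exact 95% Poisson intervals), with the y axis ended at 200 fragments. The histone peaks carry 70 to 101 fragments over backgrounds of 35.13 to 41.08 and lie within the cloud of the list.

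The position of the peaks was uneven along the loci. In total 56.5% of the bases of the 9 genes were under peaks, compared with 8.27% of all nuclear coding bases. The share of bases was not taken over coding genes of the same length range, so this contrast is not matched for gene length. Of the 9 genes 6 were covered over at least 50% of their length, as were 15.0% of the coding genes of the same length range and 8.11% of all. Among the 6 genes with a peak, 5 had a larger share covered in the part nearer the stop codon, 1 (HTA1) was covered throughout, and none more towards its start. HTA2, 1 of the 5, was covered almost throughout, with 199 bases nearer the stop codon and 197 nearer the start. Over all nuclear coding genes with a peak, 54.8% were covered more towards the stop codon and 35.1% more towards the start. A summit within the 400 bp past the stop codon, a window chosen after the summits were seen, was found for 3 of the 9 genes for 6.21% of all coding genes and for 7.01% of those of the same length range. Summits inside the body were found in 3 of the 9, in 13.8% of all coding genes and in 8.92% of those of the same length range.

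Both genes carried a peak in 2 of the 4 histone pairs, HTA1-HTB1 and HHT2-HHF2, compared with 5.50% of the 1527 divergent pairs of coding genes. At least 1 gene carried a peak in all 4 histone pairs and in 31.1% of the divergent pairs. In each histone pair the gene on the minus strand held a peak, and in HTA1-HTB1 and HHT2-HHF2 the gene on the plus strand did too. The share by strand over all divergent pairs was not counted, so no strand preference can be read from this. The pairs elsewhere whose covered shares were closest to the mean of the histone pairs were ASP3-1 with YLR156W, YLR179C with SAM1, and SRP40 with PTR2. Likeness was measured over 3 segments, the 2 bodies and the promoter, and the mean differences were 5.2, 5.3 and 6.0 percentage points. The histone pairs themselves differed from their mean by 14.4 (HHT2-HHF2), 18.5 (HTA2-HTB2), 21.2 (HHT1-HHF1) and 22.7 points (HTA1-HTB1). Their less covered body was under peaks over 77.2%, 0.0%, 0.0% and 86.9%, with a mean of 41.0%, so these pairs are near the mean and not near any single histone pair. In these pairs the strongest peaks were higher than at the histone genes, at 11.22, 4.87 and 5.99. Whether the sequences of these pairs are unique in the genome was not examined.

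The shared promoters lay mostly outside the peaks. Of the 5, that of HTA1-HTB1 was touched, over 14.2% of its 817 bp next to HTA1, and 0 held a summit. A peak touched 14.3% of all divergent promoters and 19.6% of those between 646 and 1365 bp long, the range of these 5, so 1 of 5 was near the background. A summit was present in 9.04% of all divergent promoters. The Spt10 motif, searched on both strands as TTCCNNNNNNTTCNC with N for any base, had 2 matches in the promoter of HTA1-HTB1, 1 in each of the other core promoters and 0 in that of HTZ1-PLB3. It is present in 4.58% of all divergent promoters and in 8.06% of those of this length range. Spt10 was already known to bind elements in the core promoters, so a match in each is no finding of enrichment. All 5 matches were outside the peaks, from 263 to 358 bp from the nearest one. Outside HTA1-HTB1 the core promoters had no base under a peak, so their matches could not be covered. The share of matches under peaks elsewhere was not counted, so no avoidance of the motif can be read from this. The matches are shown on the plus strand, in capitals, to set their place beside that of the peaks. The positions are chrIV:915109-915156, chrII:236103-236127, chrII:255939-255963 and chrXIV:576341-576365 in this order.
HTA1-HTB1: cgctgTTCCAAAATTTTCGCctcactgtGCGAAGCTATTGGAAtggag
HTA2-HTB2: actttGAGAAATAATGGGAAcacct
HHT1-HHF1: atgggGAGAAGCGCTCGGAAcagtt
HHT2-HHF2: ttaatGCGAAGTGCTCGGAAcggac
A match is a description of the sequence and was not tested for binding of Spt10.

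**Figure D4:**
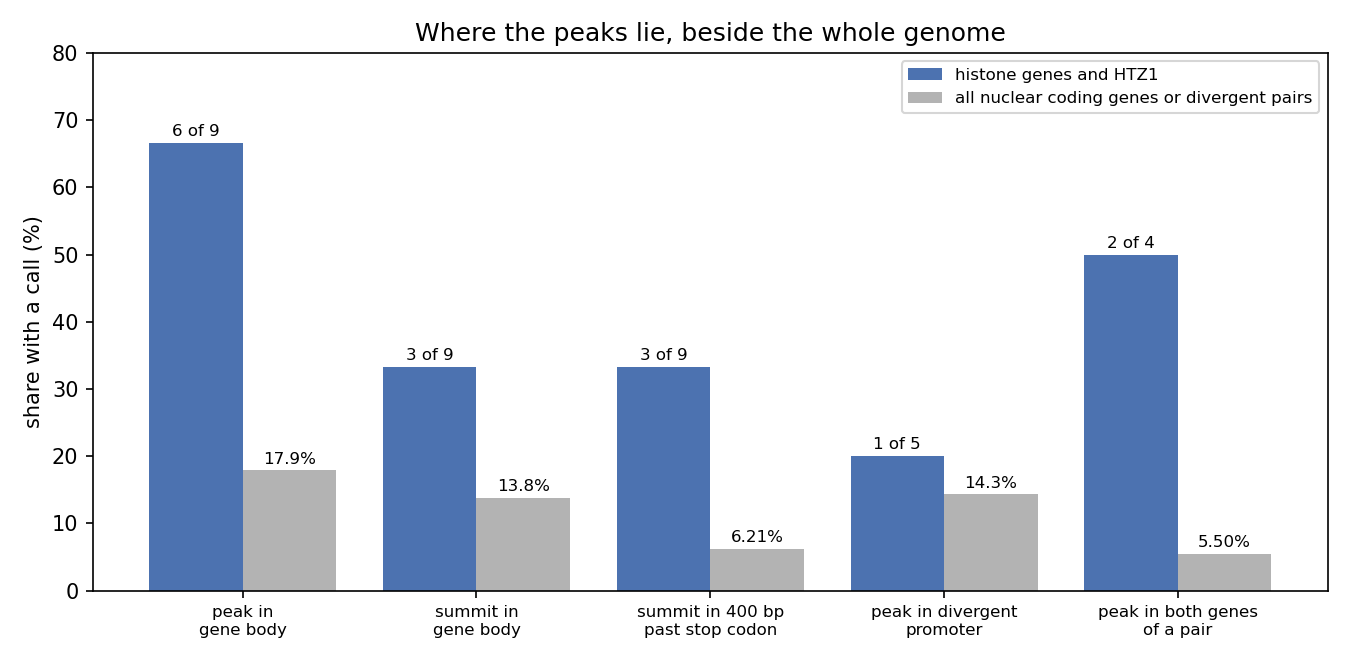
Share of the histone genes and HTZ1 (blue, with counts) and of all nuclear coding genes or divergent pairs (grey) with each kind of call, in percent. The histone genes are above the background for bodies (6 of 9 beside 17.9%) and for both genes of a pair (2 of 4 beside 5.50%), and are close to it for promoters (1 of 5 beside 14.3%).

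A G4 motif was taken as 4 runs of at least 3 G, separated by loops of 1 to 25 nt, on either strand. None of the 6 peaks contained a motif, beside 8.88% of the nuclear peaks, and with 6 peaks this is near that share. The nearest motif was 269 bp from the HHF1 peak, in the promoter of HHT1-HHF1, and the HTZ1-PLB3 promoter held another, 3162 bp from the nearest peak. Neither motif was covered by a peak, beside 30.9% of the 634 nuclear motif regions. So few motifs cannot show a difference from that share. The motifs are shown on the plus strand with G and C runs in capitals, at chrII:255857-255895 and chrXV:304421-304458, since they are the sites at these loci that the study's question concerns.
HHT1-HHF1: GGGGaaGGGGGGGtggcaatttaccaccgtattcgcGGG
HTZ1-PLB3: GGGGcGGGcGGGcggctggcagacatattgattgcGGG
In the HHT1-HHF1 motif the longest G run was read as a pair of tracts. The GC content of the 6 peaks was 33.3% to 40.0%, compared with a median of 40.4% and an interquartile range of 35.6% to 48.7% over the nuclear peaks. The peaks of HTB1 (33.3%) and HHF1 (33.8%) were below this range, and the others were within it.

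The replication origins nearest to these loci lay outside the gene pairs. Any place outside a divergent pair is past a stop codon, so this side follows from the gene order. ARS428 past HTB1 and ARS209 past HHF1 were touched by peaks, as were 10.5% of the 352 annotated nuclear origins. Neither origin held a summit, which 3.12% of all origins did. The origins nearest to HTA2-HTB2 (ARS208, 900 bp away), HTZ1-PLB3 (ARS1512, 1950 bp) and HHT2-HHF2 (ARS1423, 7116 bp) were not. The peaks of HTB1 and HHF1, which reach these origins, were the strongest of the 6. The part of the origins in these values was not tested.

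The gene copies are similar in sequence, so reads could be placed on the wrong copy. HHF1 and HHF2 were identical at 97.4% of their 312 coding bases, HTA1 and HTA2 at 93.7%, HHT1 and HHT2 at 93.2% and HTB1 and HTB2 at 87.9%. Of all stretches of 64 bases, the read length, 88.8% were unique in the genome for both H4 genes, 95.4% for both H3 genes, 99.4% for both H2A genes, and all were unique for HTB1, HTB2 and HTZ1. Exact copies thus concerned a minor part of each gene. Stretches that differ by a few bases, and differences of W303 from the S288C reference, were not examined, and the values for HHF1 and HHF2 are the least certain in this respect.

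Genes that act on histones were scored in the same way, in 4 lists with 40 genes. A peak overlapped 11 of them (27.5%), beside 17.9% of all coding genes. These shares were not matched for gene length, and their difference was not tested. Among 13 genes for regulators of histone genes 4 (30.8%) were overlapped. SPT10, SPT21, HIR1, HIR2, HIR3, HPC2 and SWI4 were not. SWI6 and MBP1, which encode the subunits of the MBF factor of the G1/S transition, had peaks of 1.92 and 3.30. The SWI6 peak covered 11.3% of the gene. The MBP1 peak covered 3.32% of the gene, with its summit 134 bp past the stop codon, and also touched PSA1. SNF2, the ATPase of the SWI/SNF remodeler, had one of 2.71. The peak at RSC8, a subunit of the RSC remodeler, reached 11.12 (10.05 to 12.28). Its summit was 158 bp past the RSC8 stop codon, and it also touched CDC26.

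Of 13 histone chaperone genes 4 (30.8%) were overlapped. NAP1, a chaperone of H2A and H2B, was covered over its whole length by a peak of 5.80 (5.04 to 6.64). VPS75, which acts with the acetyltransferase Rtt109, held a peak of 5.72 (4.96 to 6.57), which also touched CWC25. CAC2, a subunit of chromatin assembly factor CAF-1, was overlapped by 2 peaks. The stronger reached 6.53, with its summit 708 bp past the CAC2 stop codon. CUE4, YML100W-A and TSL1 were touched as well. The peak at ASF1, a chaperone of H3 and H4, reached 2.44 with the summit 259 bp past the stop codon in a tRNA gene. The FACT genes SPT16 and POB3 held none, nor did RLF2 and MSI1. Among 12 genes of the SWR1 complex, which deposits the product of HTZ1, and its associated factors, 2 (16.7%) were overlapped. This is near the 17.9% of all coding genes. They were SWC5 (2.83) and BDF1 (6.19), and SWR1 was not overlapped. Of the other histones, HHO1 for linker histone H1 had a peak of 2.15 inside the gene, while CSE4 for the centromeric H3 variant had none.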

How the data were processed

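The samples were 2 IP and 2 input ChIP-seq libraries, grouped by their labels. Per the labels and the paper's methods, the authors aligned reads to sacCer3 with Bowtie2 (bowtie in the methods) and called narrow peaks with MACS2 at a q-value of 0.05, all libraries in 1 run. The printed command lists an input file under treatment and an IP file under control; IP over input was assumed here. The header line of the deposited list belongs to another MACS table, and columns were read by position. The deposited fold enrichment is a ratio of IP to local background after adding 1 to each. The deposited −log10 p-value and q-value come from a Poisson test at the summit, and the deposited score is 10 times the latter, rounded down (1594 of 1594 peaks). Chromosome names matched R64, and all 1594 peaks lay within them.

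IP fragments were recovered as whole numbers, within 0.05, in all 1594 peaks, and range from 43 to 522. Library totals are not in the list. Coding bodies run from start to stop codon and divergent promoters between start codons. Overlap was 1 bp or more. Annotation and sequences were from RefSeq (R64), and coordinates count from 1. No test was run. Named genes were all members, their flanking genes, the listed genes with a peak (genes without one were named where this was stated) and the 3 most similar pairs. The members and lists were chosen with earlier results of these data known. Alternatives were fold minimums of 2 and 3, a q-value of 0.001, other overlaps, gene bodies extended by 200 bp, 250 bp promoters and folds without the added 1. Python 3.11.15, NumPy 2.4.6, SciPy 1.17.1, pandas 2.3.3, Biopython 1.88 and matplotlib 3.10.9 were used, and scripts were tested on simulated data.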

Additional observations from a re-analysis of the deposited data

How the results depend on the processing

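The calls at the histone genes depend on the minimum fold enrichment. With peaks of 2-fold or more, 3 gene bodies were overlapped in place of 6 (15.2% over all coding genes), 0 promoters in place of 1 (12.8% over all divergent pairs), and both genes in 0 pairs in place of 2 (4.06%), and 26.4% of the gene body bases were covered in place of 56.5% (7.13% over all). With peaks of 3-fold or more, 0 gene bodies (7.31% over all), 0 promoters (6.94%) and 0 pairs (1.77%) were counted, with 0.0% of the bases (3.2%). With the summit required inside the gene or promoter, 3 gene bodies (13.8%), 0 promoters (9.04%) and 0 pairs (3.08%) were counted. With at least 50% of the promoter under peaks, 0 promoters were counted (3.73%). A q-value of 0.001, bodies extended by 200 bp, 50% of the body and promoters of 250 bp left the counts at 6, 1 and 2 where they applied. Folds without the added 1 stayed within the counting intervals (1.90 to 2.70). No paired analysis was possible because the peak list used here is pooled over all libraries and the reads were not used here, and for the same reason no library was left out. The fewest IP fragments at a summit of these loci were 70, while the whole list went down to 43 fragments and to a fold enrichment of 1.56. A signal at HTB2, HHT1 or HTZ1 too weak to be called would not be seen in the list.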
